A study of Homo sapiens with 12 samples.

Results

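The messenger RNA change that accompanied in vivo selection was compared between 2 human lung cancer lines as the difference of their changes, (H3R minus H0R) minus (A3R minus A0R), over all 12 of the 12 arrays of the series. H3R is the HTB56 line after 3 rounds in which intravenously injected cells were selected in mice for growth as lung nodules, and H0R is HTB56 after 0 rounds. A3R and A0R are the same stages of A549. HTB56, also known as Calu-6, is an anaplastic lung carcinoma line and A549 a lung adenocarcinoma line, and each group had 3 arrays. The labels give all 4 groups as untreated with 5-azacytidine, an inhibitor of DNA methylation. They name 1 selected line per parent and leave unsaid whether replicates came from separate cultures, so each p below measures only the spread between these samples, which may be technical.

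Cells that form tumours after repeated passage through an animal are those that survived in the blood, lodged in the organ and grew there. Lung cancer lines differ in lineage, so the transcripts present before selection differ between them too. A difference of changes asks whether a transcript moved by the same amount in both lines: a positive value means that HTB56 changed more in the upward direction than A549, and a negative value the reverse. The same difference can come from 1 line or from both, so the changes are given in parentheses after it, that of HTB56 before that of A549. They share their arrays with the difference and are its parts, not separate evidence.

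All values are log2 signals summarised by RMA, so a difference of 1 is a 2-fold difference, and signals of different genes are not on a common scale. Calls rest on a limma fit over 16939 genes with the replicate number as a block, at an adjusted p below 0.05. Genes were separated by the unselected arrays: 10536 had H0R and A0R means both above 5.62, the median of all values, 588 had H0R alone above it, 761 had A0R alone above it and 5054 had neither. SVBP, at 5.62 in H0R, lay just inside the class above the median in both lines, and ZNF33B, at 5.61 in A0R, just outside.

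Array medians lay between 5.55 and 5.67, and 3 arrays per group limit the precision. Group means of the epithelial keratin genes KRT8 and KRT18 ran from 11.2 to 13.6 over the 4 groups, while the alveolar lineage factor NKX2-1 lay between 4.14 and 4.27. The epithelial marker CDH1 averaged 4.50 in H3R and 4.55 in H0R, below the median, against 8.68 in A3R and 9.53 in A0R. Group means ran from 6.32 to 8.02 for the epithelial marker EPCAM and from 11.3 to 12.1 for the mesenchymal marker VIM. AKR1B10, an aldo-keto reductase abundant in A549, averaged 6.35 in H3R, 7.05 in H0R, 12.8 in A3R and 12.8 in A0R. 1 array stood apart: over 8 genes with high signal in H3R and H0R and low signal in A3R, A0R replicate 2 lay 1.13 above the A549 median, against -0.22 to 0.03 on the other 5 A549 arrays. Of those 8 genes 1 was called in the difference of changes, and totals without that array are given below. Its part in single results was tested by leaving it out.

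Selection changed HTB56 and A549 differently at 3458 of the 16939 genes (20.4%). The difference was positive for 1664 genes (9.82%) and negative for 1794 (10.6%), and it reached 2-fold for 653 (3.86%), 239 positive and 414 negative. Of the 3458, 3449 had the same sign within each of the 3 replicate numbers, as had 52.0% of all genes. The tested difference is the mean over the same 3 numbers. That agreement therefore follows largely from the choice of called genes and is not separate evidence. Without adjustment 5472 genes had a limma p below 0.05. The HTB56 change was called for 4744 genes (28%), of which 2186 (12.9%) rose and 2558 (15.1%) fell. The A549 change was called for 562 (3.32%), of which 297 (1.75%) rose and 265 (1.56%) fell. H3R differed from A3R at 8933 genes (52.7%) and H0R from A0R at 9093 (53.7%). The HTB56 change was the larger in size for 2914 of the 3458 genes and the A549 change for 544. Changes were larger in HTB56 over all tested genes too, with a median absolute change of 0.15, against 0.10 in A549.

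By the calls of the single lines, 2752 of the 3458 genes (79.6%) had a called change in HTB56 and none in A549, and 245 (7.09%) had one in A549 and none in HTB56. Another 116 (3.35%) had called changes of opposite sign, 36 higher in H3R and lower in A3R and 80 the other way. In 31 (0.896%) both changes were called with the same sign and unequal size, and in 314 (9.08%) neither change was called while the difference was. Without A0R replicate 2 the genes called in A549 numbered 337 and the opposite ones 60, and over the 6 fits that left out 1 A549 array they ran from 290 to 396 and from 54 to 84. Without H3R replicate 2 the opposite ones numbered 77. Without the replicate block the totals were 2000 called in the difference, 297 in A549 and 49 opposite. Without A0R replicate 2 the difference was called for 2901 genes. Counts within gene lists under these fits, given below, stand against these lower totals.

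**Figure D1:**
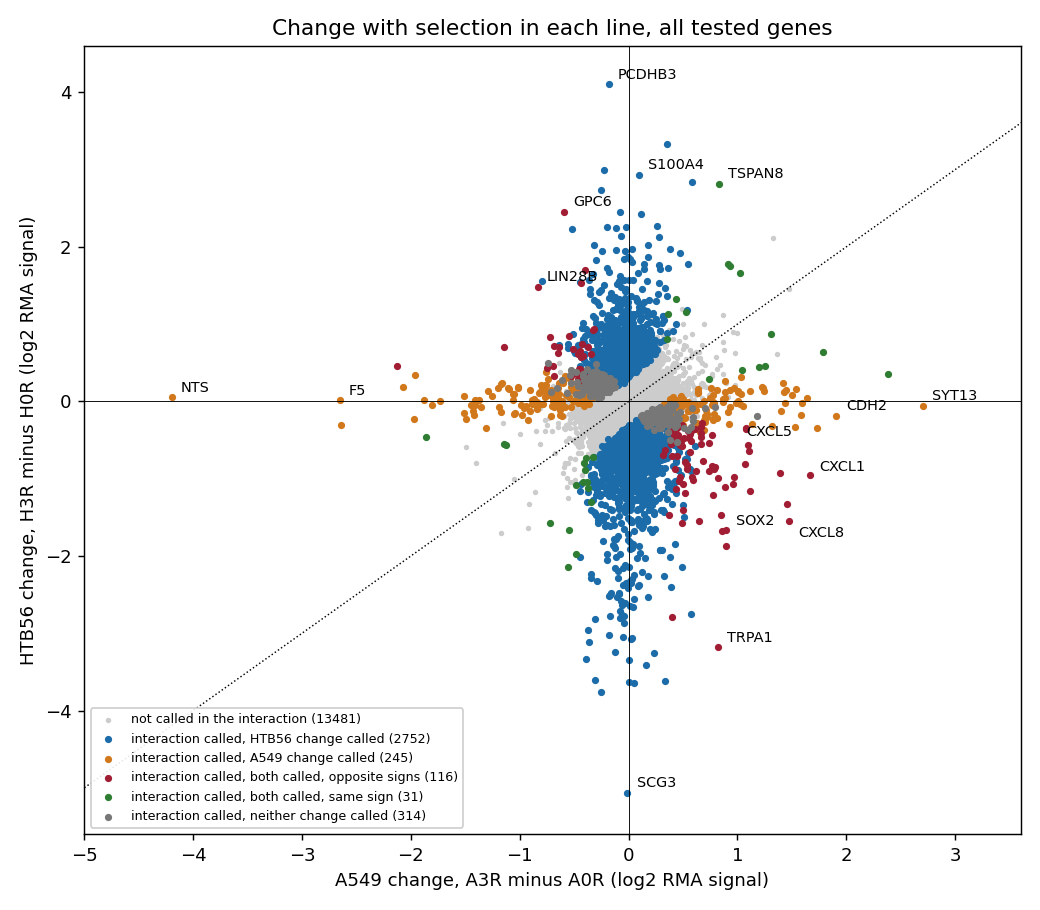
Change with selection in HTB56 (H3R minus H0R, vertical axis, log2 RMA signal) against the change in A549 (A3R minus A0R, horizontal axis) for all 16939 tested genes, coloured by which changes were called among the 3458 genes called in the difference; the dotted line marks equal change. Most coloured points lie along the vertical axis, with NTS, F5, SYT13 and CDH2 along the horizontal one and CXCL1, CXCL8, SOX2 and TRPA1 in the quadrant of opposite changes.

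The share called differed between the signal classes. Among genes above the median in both unselected lines 2637 of 10536 were called (25%), 1301 positive and 1336 negative, with 116 and 227 at 2-fold or more. Where H0R alone was above the median, 262 of 588 were called (44.6%), 31 positive and 231 negative. Where A0R alone was above it, 175 of 761 were called (23%), 131 positive and 44 negative, and where neither was, 384 of 5054 (7.6%). The classes were drawn from H0R and A0R, which also enter the difference, and a gene near background in 1 line has little room to fall there, so the split of signs in the one-line classes is a description and was not tested. Without the replicate block the called genes were 1405 above the median in both lines, 225 in H0R alone, 137 in A0R alone and 233 in neither.

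Of the 653 genes with a difference of at least 2-fold, the gap between the lines was narrower after selection for 423 and wider for 230. The gap was at least 2-fold between the unselected lines and under 2-fold between the selected ones for 248 genes, and the reverse held for 127. For 5 genes the order of the lines turned round with a gap of at least 2-fold at both stages. The gap between the unselected lines is part of the difference by which these genes were picked. The counts are therefore a description, were not made over all genes and were not tested.

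Among genes above the median in both unselected lines, the positive differences were led by S100A4, a calcium-binding protein of motile cells. S100A4 read 9.76, 9.59 and 9.53 in H3R, against 6.48, 6.95 and 6.65 in H0R. In A549 it read 10.61, 10.84 and 10.42 in A3R, against 10.68, 10.54 and 10.38 in A0R. The HTB56 groups did not overlap, the A549 groups did, and H3R stayed below every A549 array. The HTB56 change was 2.94 and the A549 change 0.09, a difference of 2.84 (SE 0.17, limma adjusted p = 2.20e-06). DSG2, the desmosomal cadherin desmoglein 2, read 9.36, 9.15 and 9.36 in H3R, against 7.32, 7.33 and 7.36 in H0R. It read 9.38, 9.30 and 9.36 in A3R, against 9.34, 9.28 and 9.50 in A0R. Its difference was 1.98 (SE 0.11, limma adjusted p = 1.16e-06), and the H3R arrays reached the level of A549. SRGN, the granule proteoglycan serglycin, differed by 2.36 (2.25 in HTB56 and -0.12 in A549), with A549 above HTB56 at both stages. AGR2, a protein disulfide isomerase of mucus-secreting epithelium, differed by 2.25 (2.83 in HTB56 and 0.58 in A549), and SPINT2, an inhibitor of membrane serine proteases, by 1.86 (1.68 in HTB56 and -0.18 in A549).

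RAP1GAP2, which switches off the small GTPase Rap1, differed by 2.46 (2.25 in HTB56 and -0.20 in A549). It read 8.74, 8.69 and 8.46 in H3R, against 6.59, 6.30 and 6.23 in H0R, and 6.40, 6.75 and 6.39 in A3R, against 6.64, 6.98 and 6.53 in A0R, so H0R lay near the A549 arrays and H3R above all of them. UCP2, a carrier of the inner mitochondrial membrane, differed by 2.13 (1.83 in HTB56 and -0.30 in A549), and LIMA1, an actin-binding protein, by 1.99 (1.55 in HTB56 and -0.44 in A549). In each of these 3 genes the HTB56 change was called and the A549 change was not.

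The negative differences of this class were led by TRPA1, a cation channel opened by irritants. TRPA1 read 4.14, 4.25 and 4.40 in H3R, against 7.27, 7.50 and 7.57 in H0R. In A549 it read 6.95, 6.70 and 7.23 in A3R, against 6.06, 5.96 and 6.39 in A0R. All 3 H3R arrays lay below and all 3 A3R arrays above their unselected groups. The changes were -3.18 in HTB56 and 0.82 in A549, a difference of -4.01 (SE 0.14, limma adjusted p = 9.94e-08). DIAPH2, a formin that nucleates actin filaments, read 3.26, 3.36 and 3.21 in H3R, against 6.77, 6.61 and 6.70 in H0R. It read 7.17, 7.26 and 7.16 in A3R, against 7.08, 7.07 and 6.95 in A0R. Its signal in H3R was below 3.48, the mean 20th percentile of the arrays, and the difference was -3.58 (SE 0.11, limma adjusted p = 2.71e-08). PLEK2, a pleckstrin of the actin cytoskeleton, differed by -3.32 (-2.75 in HTB56 and 0.57 in A549), and the membrane protein gene TMEM145 by -3.34 (-3.34 in HTB56 and 0.00 in A549). TM4SF18, of the transmembrane 4 family, differed by -3.19 (-2.79 in HTB56 and 0.40 in A549) with both changes called.

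SYP and VGF, both genes of regulated secretion, were also among the negative differences of this class. SYP, the vesicle membrane protein synaptophysin, read 5.43, 5.56 and 5.63 in H3R, against 8.80, 8.73 and 8.14 in H0R, and 5.81, 5.73 and 5.82 in A3R, against 6.09, 6.05 and 5.76 in A0R. Its difference was -2.84 (SE 0.20, limma adjusted p = 7.33e-06), and H3R lay near the A549 arrays. VGF, a neuropeptide precursor, differed by -2.71 (-2.53 in HTB56 and 0.18 in A549). CA8, a carbonic anhydrase relative without that activity, differed by -2.76 (-1.86 in HTB56 and 0.90 in A549), with called changes in both lines.

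**Figure D2:**
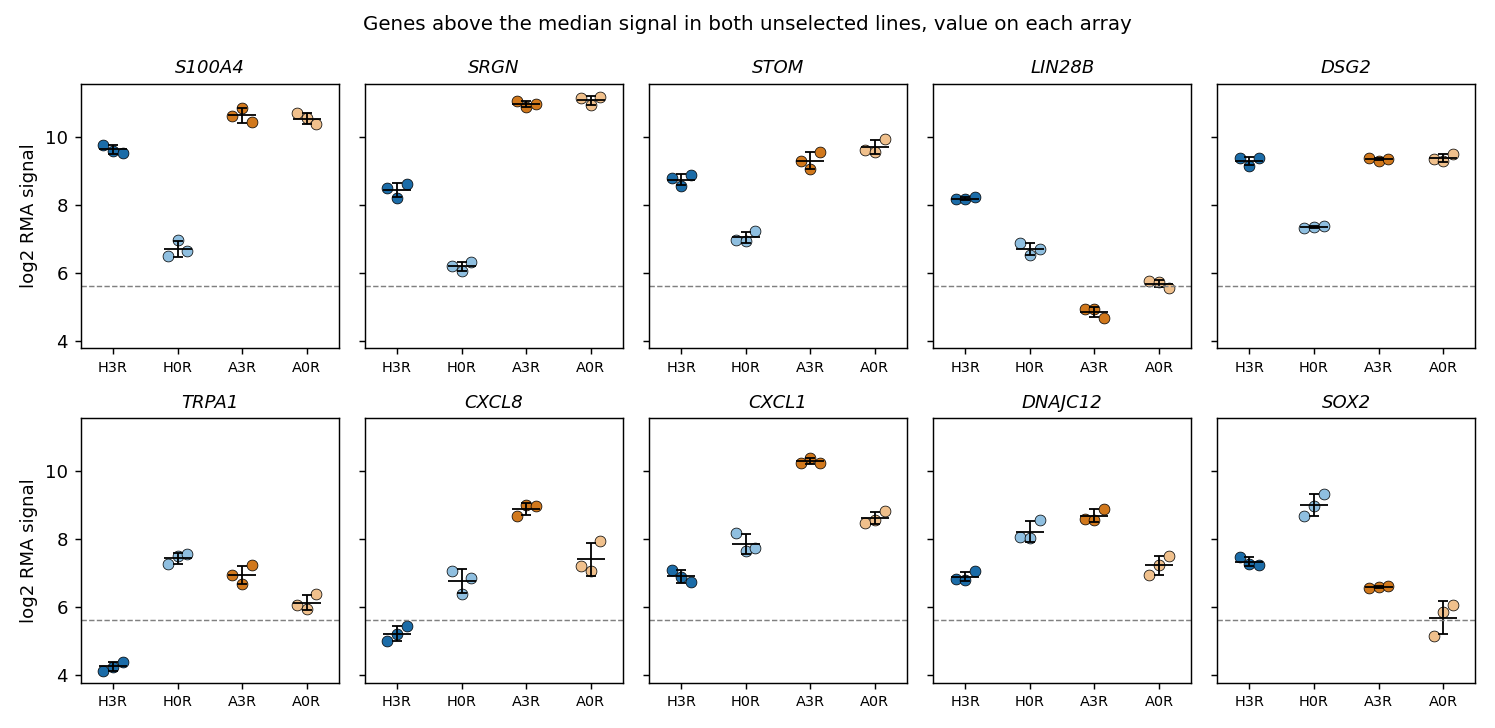
Log2 RMA signal (vertical axis) of 10 genes above the median in both unselected lines on each of the 12 arrays, by group from left to right H3R, H0R, A3R and A0R; points are arrays, the horizontal bar is the mean with its SD (n = 3), and the dashed line is the median of all values, 5.62. S100A4, SRGN and DSG2 differ between the HTB56 groups with overlapping or close A549 groups, whereas STOM, LIN28B, TRPA1, CXCL8, CXCL1, DNAJC12 and SOX2 move in opposite ways in the lines.

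The 116 genes with opposite called changes included a neutrophil chemokine pair, a stem cell factor and a regulator of microRNA processing. CXCL8, which encodes interleukin-8, read 5.02, 5.23 and 5.44 in H3R, against 7.07, 6.39 and 6.86 in H0R. In A549 it read 8.69, 9.02 and 8.97 in A3R, against 7.20, 7.08 and 7.97 in A0R. Neither pair of groups overlapped. The change was -1.55, limma adjusted p = 0.000141, in HTB56 and 1.48, limma adjusted p = 0.002, in A549, and their difference was -3.02 (SE 0.27, limma adjusted p = 3.26e-05). CXCL1, which attracts neutrophils through the same receptor family, read 7.11, 6.89 and 6.74 in H3R, against 8.20, 7.65 and 7.73 in H0R. It read 10.26, 10.40 and 10.25 in A3R, against 8.48, 8.57 and 8.84 in A0R. Its changes were -0.95 in HTB56 and 1.67 in A549, without overlap in either line, and the difference was -2.62 (SE 0.21, limma adjusted p = 1.61e-05).

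DNAJC12, a J-domain partner of the aromatic amino acid hydroxylases, read 6.83, 6.82 and 7.08 in H3R, against 8.07, 8.04 and 8.58 in H0R. It read 8.60, 8.56 and 8.91 in A3R, against 6.94, 7.25 and 7.51 in A0R. H0R and A3R were both high and H3R and A0R both low, and the difference was -2.78 (SE 0.13, limma adjusted p = 6.04e-07). SOX2, a transcription factor of stem cells and of the foregut and nervous system, read 7.49, 7.29 and 7.26 in H3R, against 8.70, 8.99 and 9.35 in H0R. In A549 SOX2 read 6.58, 6.59 and 6.64 in A3R, against 5.16, 5.86 and 6.08 in A0R. A0R ranged widely, and the A549 change of 0.90 (limma adjusted p = 0.0213) stood against -1.67 in HTB56, a difference of -2.57 (SE 0.25, limma adjusted p = 6.82e-05). LXN, a carboxypeptidase inhibitor, differed by -2.27 (-1.16 in HTB56 and 1.11 in A549), and KCNN4, a calcium-activated potassium channel, by -1.94 (-0.97 in HTB56 and 0.97 in A549). STC1, the secreted glycoprotein stanniocalcin 1, differed by -2.02 (-1.06 in HTB56 and 0.96 in A549) and was above the median in H0R alone.

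In the other direction LIN28B, an RNA-binding protein that blocks maturation of let-7 microRNAs, read 8.16, 8.16 and 8.22 in H3R, against 6.87, 6.51 and 6.70 in H0R. It read 4.93, 4.92 and 4.66 in A3R, against 5.74, 5.72 and 5.55 in A0R. The lines moved apart, with a difference of 2.32 (SE 0.14, limma adjusted p = 2.46e-06), and A3R fell below the median of all values. STOM, the membrane protein stomatin, differed by 2.10 (1.70 in HTB56 and -0.40 in A549), and ALDH2, the mitochondrial aldehyde dehydrogenase, by 1.41 (0.72 in HTB56 and -0.69 in A549). PPP1R14A, an inhibitor of myosin phosphatase, differed by 1.35 (0.71 in HTB56 and -0.64 in A549), and the lines moved toward each other in STOM, ALDH2 and PPP1R14A. SH3BGRL2 differed by 1.85 (0.71 in HTB56 and -1.14 in A549) and the zinc finger gene ZNF485 by 1.55 (0.83 in HTB56 and -0.72 in A549). PTGER2, a receptor of prostaglandin E2 below the median in both unselected lines, differed by 1.28 (0.63 in HTB56 and -0.65 in A549), and RBPMS, an RNA-binding protein above it in A0R alone, by 1.39 (0.85 in HTB56 and -0.55 in A549). Each of these opposite genes kept its call in the difference under every alternative setting that tested it, 26 for PTGER2 and 27 for the others.

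Chemokine and inflammatory cytokine genes are transcribed largely through NF-kB, and interferon response genes through factors that bind short GAAA repeats. Of 42 tested chemokine and cytokine genes 12 were called with a negative difference and 3 with a positive one (35.7%, against 20.4% of all genes), and the median difference was -0.33, against 0.02 over all genes. In HTB56 6 of the 42 were called higher and 4 lower, and in A549 15 higher and 0 lower. Above the median in both unselected lines were 16 members, 6 called negative and 1 positive, in a class where 25% of all genes were called. In 9 members A0R alone was above the median, in 1 H0R alone and in 16 neither. CXCL5, a further neutrophil chemokine, read 7.24, 7.41 and 7.17 in H3R, against 7.41, 7.60 and 7.33 in H0R, and 12.26, 12.25 and 11.51 in A3R, against 10.54, 10.29 and 10.44 in A0R. The HTB56 groups overlapped, with H3R lower by 0.16 to 0.19 within each replicate number and no call, and A3R lay above A0R on every array, a difference of -1.75 (SE 0.21, limma adjusted p = 0.000232). CXCL2, near background in HTB56, differed by -1.86 (-0.33 in HTB56 and 1.53 in A549). The positive members included IL18, a cytokine of the interleukin 1 family that differed by 1.64 (1.55 in HTB56 and -0.09 in A549), and CCL28, a mucosal chemokine that differed by 0.60 (0.44 in HTB56 and -0.16 in A549) at signals under 4 on all arrays.

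Interferon response genes differed mostly one way: of 45 tested, 19 were called with a negative difference and 1 with a positive one (44.4%), with a median of -0.33. In HTB56 2 were called higher and 13 lower, and in A549 11 higher and 0 lower. Called changes of opposite sign were found in 5 of the 45. Of the 17 members above the median in both unselected lines 8 were called negative and 1 positive. LGALS3BP, a secreted glycoprotein that binds galectin-3, read 9.43, 9.12 and 8.91 in H3R, against 10.15, 10.34 and 9.73 in H0R. It read 9.72, 9.66 and 9.30 in A3R, against 8.44, 8.36 and 7.71 in A0R. Both pairs of groups were separate, with H0R and A3R the higher, and the difference was -2.31 (SE 0.15, limma adjusted p = 3.69e-06). IFIT1, which binds viral RNA that lacks cap methylation, read 4.51, 5.07 and 4.88 in H3R, against 5.03, 5.23 and 5.57 in H0R. In A549 IFIT1 read 6.33, 6.58 and 6.41 in A3R, against 5.75, 5.66 and 5.90 in A0R. H3R and H0R overlapped below the median, A3R and A0R did not overlap, both changes were called, and the difference was -1.13 (SE 0.18, limma adjusted p = 0.00129). IFI16, a sensor of DNA near background in A549, differed by -1.72 (-1.40 in HTB56 and 0.32 in A549), while IFIT5, of the same family as IFIT1, was the positive member at 0.92 (1.15 in HTB56 and 0.23 in A549).

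Antigen presentation genes, which load peptides on class I molecules and are induced by interferon, had 8 of 19 called with a negative difference and 0 with a positive one (42.1%), with a median of -0.34. Without the replicate block 4 were negative and 0 positive. Of the 11 members above the median in both unselected lines 7 were called negative and 0 positive. PSMB8, a subunit of the immunoproteasome, differed by -1.73 (-1.33 in HTB56 and 0.40 in A549), and ERAP2, a peptidase that trims peptides, by -0.99 (-0.64 in HTB56 and 0.34 in A549). In HTB56 9 members were called lower and 1 higher, and in A549 2 higher and 0 lower.

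Promoter windows are shown for 5 members with negative differences, chosen because they carry a motif of their list. Each holds the 250 bases before the RefSeq start and the first 50 after it, from GRCh38.p14, read 5′ to 3′ on the gene's own strand. They are CXCL8 at chr4:73740319-73740618 (plus strand), CXCL1 at chr4:73869143-73869442 (plus), CXCL5 at chr4:73998628-73998927 (minus), IFIT1 at chr10:89392373-89392672 (plus) and LGALS3BP at chr17:78979874-78980173 (minus). Capitals mark GGNNNTTCC, an NF-kB type motif, in the chemokine genes and GAAANNGAA, an interferon response element type motif, in IFIT1 and LGALS3BP, both searched on both strands.
CXCL8: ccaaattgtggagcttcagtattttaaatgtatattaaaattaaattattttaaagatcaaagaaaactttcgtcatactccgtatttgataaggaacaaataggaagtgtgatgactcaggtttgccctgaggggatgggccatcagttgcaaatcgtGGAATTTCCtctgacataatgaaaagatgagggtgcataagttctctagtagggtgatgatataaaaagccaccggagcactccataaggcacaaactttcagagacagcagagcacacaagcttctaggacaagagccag
CXCL1: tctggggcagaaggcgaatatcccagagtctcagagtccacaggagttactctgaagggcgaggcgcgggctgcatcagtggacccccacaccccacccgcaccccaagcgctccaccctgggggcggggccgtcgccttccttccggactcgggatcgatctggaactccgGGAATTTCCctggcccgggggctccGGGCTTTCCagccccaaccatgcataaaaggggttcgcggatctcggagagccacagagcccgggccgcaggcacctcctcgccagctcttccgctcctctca
CXCL5: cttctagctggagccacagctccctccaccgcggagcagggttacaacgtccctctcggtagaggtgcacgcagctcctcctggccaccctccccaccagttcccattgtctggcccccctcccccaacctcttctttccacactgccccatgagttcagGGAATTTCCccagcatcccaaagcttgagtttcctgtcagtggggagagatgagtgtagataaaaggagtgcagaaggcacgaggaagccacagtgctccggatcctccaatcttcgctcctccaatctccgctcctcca
IFIT1: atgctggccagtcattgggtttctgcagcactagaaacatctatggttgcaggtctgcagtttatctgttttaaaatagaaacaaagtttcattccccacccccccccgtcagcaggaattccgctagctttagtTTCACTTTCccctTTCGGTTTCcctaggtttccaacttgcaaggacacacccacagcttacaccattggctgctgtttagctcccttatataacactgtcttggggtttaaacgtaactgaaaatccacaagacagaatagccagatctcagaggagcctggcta
LGALS3BP: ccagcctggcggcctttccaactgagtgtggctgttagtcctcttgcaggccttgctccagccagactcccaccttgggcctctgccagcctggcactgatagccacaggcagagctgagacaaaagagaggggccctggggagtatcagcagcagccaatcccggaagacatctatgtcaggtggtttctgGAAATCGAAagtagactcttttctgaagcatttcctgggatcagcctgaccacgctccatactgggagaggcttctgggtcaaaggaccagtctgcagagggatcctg

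The motif match began at -91 from the start in CXCL8, at -78 and -53 in CXCL1, at -90 in CXCL5, at -115 and -102 in IFIT1 and at -58 in LGALS3BP. GGNNNTTCC was present in 48.4% of the 31 chemokine and cytokine genes that had a window and in 8 of the 10 with a negative call. Over all 27305 windows the share was 20.1%, and over the genes tested 22.2%. GAAANNGAA was present in 64.9% of the 37 interferon response genes with a window and in 12 of the 18 with a negative call, against 8.29% of all windows and 6.34% of those tested. Both lists hold genes long known as targets of these factors, so the shares describe the lists and a match is not a binding site. Other members stood otherwise: TNFSF15 and PTGS2 had 0 matches to GGNNNTTCC with called differences of -1.15 and -2.31, IFI16 had 0 matches to GAAANNGAA with one of -1.72, and IFIT5 had 3 with a positive difference of 0.92. PTGS2, the inducible cyclooxygenase, was chosen for mention after its values were seen. Over all genes GGNNNTTCC was present in 23.1% of the windows with a positive difference and 23% with a negative one.

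Among genes near background in unselected A549, the negative differences were genes that fell in HTB56. SCG3, the granule protein secretogranin III, had the most negative difference of the named genes and read 3.90, 3.95 and 3.85 in H3R, against 9.0, 8.97 and 8.91 in H0R. In A549 it read 3.39, 3.12 and 3.35 in A3R, against 3.29, 3.33 and 3.27 in A0R. H3R came within 1 log2 unit of the A549 arrays, which did not differ beyond their spread, and the difference of -5.05 (SE 0.12, limma adjusted p = 3.44e-09) was the HTB56 change of -5.06 set against -0.01. CHGB, the granule protein chromogranin B, read 5.71, 5.58 and 5.86 in H3R, against 9.40, 9.13 and 9.47 in H0R, and 5.17, 5.40 and 5.07 in A3R, against 4.78, 5.0 and 4.85 in A0R. Its difference was -3.95 (SE 0.18, limma adjusted p = 4.77e-07). MFNG, a glycosyltransferase that modifies Notch receptors, differed by -3.69 (-3.64 in HTB56 and 0.05 in A549), and FSTL5, a follistatin-like protein, by -3.63 (-3.63 in HTB56 and 0.00 in A549). RAB3C, a small GTPase of secretory vesicles, differed by -3.51 (-3.76 in HTB56 and -0.25 in A549), and NSG2, a neuronal endosome protein, by -3.49 (-3.25 in HTB56 and 0.24 in A549). All A549 arrays lay below the median of all values in these 6 genes, with CHGB and MFNG the higher among them, and CHGB was higher in A3R than in A0R.

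Vesicle docking and fusion genes had the highest share called of the 34 lists: 13 of 24 negative and 1 positive (58.3%), with a median difference of -0.87. In HTB56 13 were called lower and 3 higher, and in A549 3 higher and 1 lower. Of the 11 members above the median in both unselected lines 6 were called negative and 0 positive. The positive member was RAB3B, another vesicle GTPase, at 1.09 (1.13 in HTB56 and 0.04 in A549). Of 17 tested granin and peptide hormone processing genes 5 were called negative and 1 positive (35.3%, against 20.4% of all genes), with a median of -0.09. Of 17 neural lineage transcription factors 3 were negative and 1 positive (23.5%, near the share of all genes), with a median of -0.03. The negative ones included SOX2 and PAX6, a factor of eye, brain and endocrine pancreas that differed by -1.85 (-2.05 in HTB56 and -0.20 in A549). The positive one was NHLH1, at 0.47, whose call was lost in 6 of 26 alternative settings (limma adjusted p up to 0.322). KIT, the receptor of stem cell factor, read 3.68, 3.36 and 3.34 in H3R, against 6.96, 6.10 and 6.65 in H0R, and 3.41, 3.32 and 3.02 in A3R, against 3.64, 3.31 and 3.88 in A0R, a difference of -2.75 (SE 0.24, limma adjusted p = 2.40e-05). All 3 H3R arrays lay at the background level of A549.

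The positive differences of this class were fewer. CDH19, a cadherin of neural crest derived cells, read 9.45, 9.24 and 9.43 in H3R, against 7.90, 7.57 and 8.0 in H0R, and 3.47, 3.65 and 3.15 in A3R, against 4.01, 5.09 and 3.57 in A0R. Its difference was 2.35 (SE 0.40, limma adjusted p = 0.0021), and A0R replicate 2, at 5.09, was the highest A549 array. MMP1, the interstitial collagenase, differed by 1.57 (1.71 in HTB56 and 0.14 in A549), ACTG2, a smooth muscle actin, by 1.77 (1.80 in HTB56 and 0.03 in A549) and PSTPIP2, an actin-associated membrane-bending protein, by 1.68 (1.42 in HTB56 and -0.27 in A549). OTULINL differed by 2.01 (2.27 in HTB56 and 0.26 in A549), and EPHA4, an ephrin receptor, by 1.43 (1.11 in HTB56 and -0.33 in A549).

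Among genes near background in unselected HTB56, the signal that moved was often that of A549. NTS, the precursor of the peptide neurotensin, read 3.89, 3.48 and 3.93 in H3R, against 3.81, 3.51 and 3.83 in H0R. In A549 it read 4.88, 3.61 and 4.19 in A3R, against 8.16, 8.04 and 9.08 in A0R. The HTB56 arrays overlapped at background, and A3R fell toward that range, with the arrays at 4.88 and 4.19 still above every HTB56 array. The difference was 4.25 (SE 0.32, limma adjusted p = 1.30e-05). F5, coagulation factor V, differed by 2.67 (0.01 in HTB56 and -2.65 in A549). SYT13, a synaptotagmin of membrane traffic, read 4.04, 4.27 and 4.61 in H3R, against 4.34, 4.43 and 4.32 in H0R. It read 8.58, 8.18 and 8.49 in A3R, against 5.45, 5.32 and 6.38 in A0R. A3R was above A0R on every array, the HTB56 groups overlapped, and the difference was -2.76 (SE 0.28, limma adjusted p = 7.28e-05). The N-cadherin gene CDH2 read 4.63, 4.51 and 4.73 in H3R, against 4.90, 4.62 and 4.91 in H0R, and 7.47, 7.13 and 7.98 in A3R, against 5.56, 5.23 and 6.07 in A0R. The difference for CDH2 was -2.09 (SE 0.18, limma adjusted p = 2.47e-05). CEACAM6, an adhesion glycoprotein of epithelia, differed by -1.64 (-0.32 in HTB56 and 1.31 in A549), and SERPINA3, the protease inhibitor alpha-1-antichymotrypsin, by -1.61 (-0.02 in HTB56 and 1.59 in A549). SLPI, an inhibitor of neutrophil elastase, differed by 2.30 (0.34 in HTB56 and -1.96 in A549).

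In other genes of this class HTB56 gained a transcript that A549 already carried. GPC6, a cell surface heparan sulfate proteoglycan, read 7.09, 6.95 and 7.12 in H3R, against 4.51, 4.30 and 4.97 in H0R, and 7.07, 6.88 and 7.17 in A3R, against 7.43, 7.42 and 8.04 in A0R. H3R reached the level of A3R, A3R and A0R were separate in the opposite direction, and the difference was 3.05 (SE 0.16, limma adjusted p = 1.13e-06). DSP, the desmosomal plaque protein desmoplakin, read 6.52, 6.46 and 6.64 in H3R, against 4.33, 4.44 and 4.14 in H0R, and 8.19, 8.32 and 7.64 in A3R, against 8.62, 8.88 and 8.19 in A0R. The HTB56 change in DSP was 2.24 and the A549 change -0.52, where the groups overlapped, A3R was lower by 0.43 to 0.56 within each replicate number and the change was not called (limma adjusted p = 0.0900), a difference of 2.75 (SE 0.20, limma adjusted p = 1.12e-05). PCDHB2, of the beta protocadherin cluster, differed by 2.98 (3.33 in HTB56 and 0.35 in A549). Hepatic and renal type genes, many of them plasma proteins and transporters, had 10 of 43 called positive and 2 negative (27.9%), with a median of 0.26. In 16 of the 43 A0R alone was above the median, in 5 both unselected lines and in 22 neither. Of those 5, 0 were called positive and 1 negative. Falls in A549 outnumbered gains in HTB56 in this list. In HTB56 3 of the 43 were called higher and 2 lower, and in A549 4 higher and 9 lower. SLC17A3, an organic anion transporter, differed by 2.26 (0.19 in HTB56 and -2.07 in A549), and ABCC2, an export pump above the median in both lines, by -2.08 (-2.12 in HTB56 and -0.04 in A549).

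**Figure D3:**
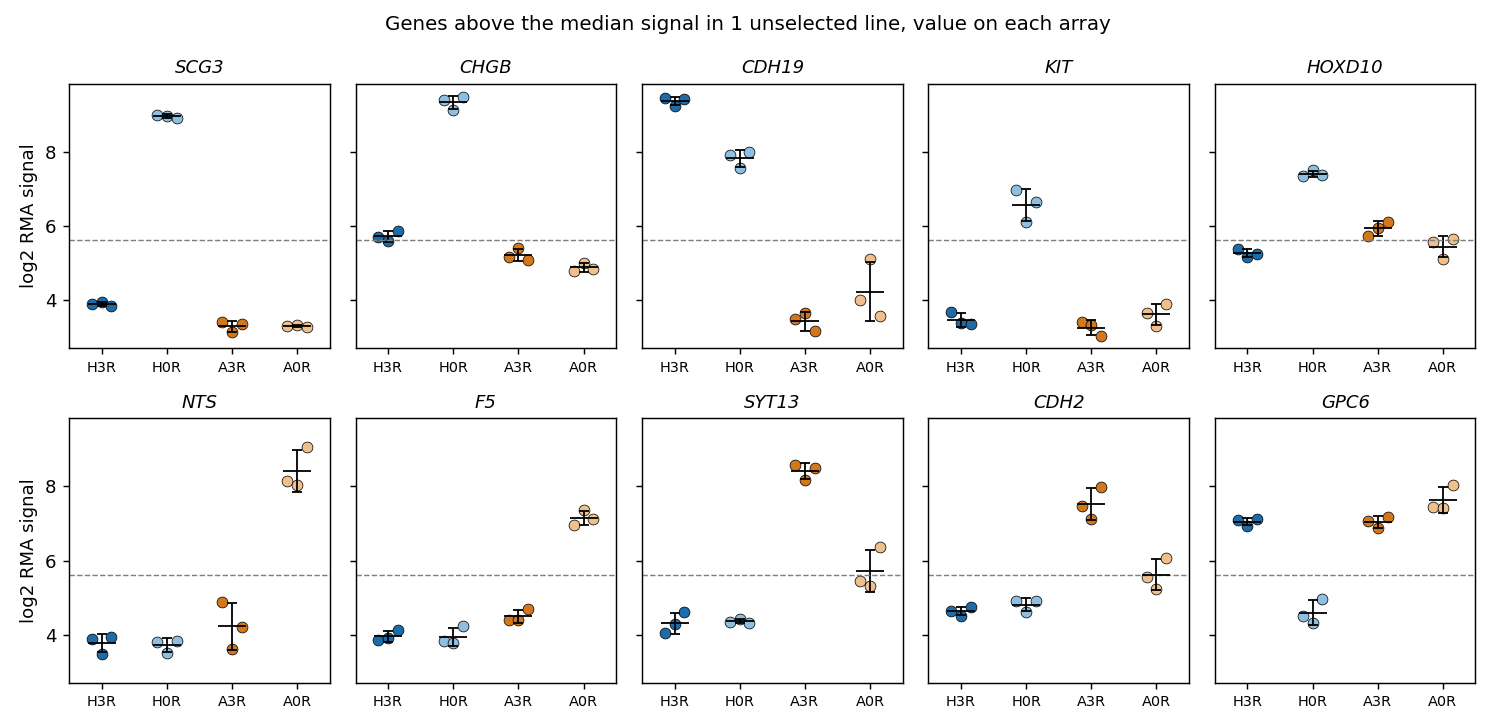
Log2 RMA signal (vertical axis) of 10 genes above the median in 1 unselected line on each of the 12 arrays, by group from left to right H3R, H0R, A3R and A0R; points are arrays, the horizontal bar is the mean with its SD (n = 3), and the dashed line is the median of all values, 5.62. In the upper row SCG3, CHGB and KIT fall in H3R and CDH19 is higher there, and in the lower row NTS and F5 fall in A3R, SYT13 and CDH2 are higher in A3R, and GPC6 is higher in H3R.

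Genes below the median in both unselected lines were called at 7.6%, and some became bright after selection. PCDHB3, a beta protocadherin of cell contacts, read 7.69, 7.83 and 7.65 in H3R, against 3.42, 3.63 and 3.79 in H0R. In A549 it read 3.95, 3.76 and 3.34 in A3R, against 3.69, 3.74 and 4.16 in A0R. The H3R arrays stood alone, and the difference was 4.29 (SE 0.24, limma adjusted p = 1.50e-06). DIO2, which activates thyroid hormone, differed by 3.22 (3.0 in HTB56 and -0.22 in A549), COLEC10, a collectin of innate immunity, by 3.0 (2.74 in HTB56 and -0.26 in A549) and S100A2, a calcium-binding protein, by 2.28 (2.25 in HTB56 and -0.02 in A549). MAGEC2, a cancer-testis antigen, differed by 2.18 (1.94 in HTB56 and -0.24 in A549), and HOXB2, a homeobox factor, by 2.08 (1.96 in HTB56 and -0.12 in A549). Changes carried by A549 in this class were those of GASK1B, a Golgi kinase relative, at -2.07 (-0.34 in HTB56 and 1.73 in A549), EFEMP1, the matrix protein fibulin 3, at -1.60 (0.04 in HTB56 and 1.64 in A549), and the basement membrane collagens COL4A6, at -1.18 (0.24 in HTB56 and 1.42 in A549) and COL4A5, at -1.11 (-0.06 in HTB56 and 1.05 in A549). B3GALNT1, a glycosyltransferase of globosides, differed by -1.84 (-1.82 in HTB56 and 0.02 in A549).

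In 31 genes both changes were called with the same sign, so the difference is one of size. TSPAN8, a tetraspanin of epithelial membranes, read 6.76, 6.21 and 6.10 in H3R, against 3.62, 3.64 and 3.37 in H0R, and 4.17, 4.18 and 4.38 in A3R, against 3.08, 3.67 and 3.48 in A0R. It rose in both lines and more in HTB56, a difference of 1.99 (SE 0.26, limma adjusted p = 0.000406). RNF144B, a ubiquitin ligase, differed by 0.65 (1.67 in HTB56 and 1.02 in A549), AMOTL1, an angiomotin of cell junctions, by -0.85 (-1.57 in HTB56 and -0.72 in A549) and TFF1, a trefoil peptide of mucosa, by 0.81 (1.75 in HTB56 and 0.93 in A549). The larger rise was in A549 for TNFSF15, a cytokine of the tumour necrosis factor family that differed by -1.15 (0.64 in HTB56 and 1.79 in A549), and for the thromboxane synthase gene TBXAS1, which differed by -0.44 (0.87 in HTB56 and 1.31 in A549). PPARGC1A, a coactivator of mitochondrial genes, fell in both lines, with a difference of 0.56 (-0.56 in HTB56 and -1.12 in A549), and the matrix proteoglycan gene LUM rose in both, with a difference of 0.86 (1.78 in HTB56 and 0.91 in A549). The call for TFF1 was lost in 10 of 27 alternative settings (limma adjusted p up to 0.174), for LUM in 14 of 27 alternative settings (limma adjusted p up to 0.221), for TBXAS1 in 16 of 27 alternative settings (limma adjusted p up to 0.593) and for PPARGC1A in 17 of 27 alternative settings (limma adjusted p up to 0.38).

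Epithelial junction and keratin genes differed mainly toward HTB56: of 37 tested 11 were called positive and 3 negative (37.8%), with a median of 0.21. In HTB56 12 were called higher and 2 lower, and in A549 2 higher and 2 lower. Of the 18 members above the median in both unselected lines 7 were called positive and 2 negative. DSP, DSG2 and SPINT2 are among the positive members. EPCAM, an adhesion molecule of simple epithelia, read 7.64, 7.0 and 7.39 in H3R, against 6.91, 6.32 and 5.73 in H0R, and 7.63, 7.50 and 7.68 in A3R, against 7.92, 7.89 and 8.26 in A0R, a difference of 1.44 (SE 0.32, limma adjusted p = 0.00846). CDH1, which encodes E-cadherin, read 4.38, 4.34 and 4.79 in H3R, against 4.43, 4.50 and 4.73 in H0R, and 8.93, 8.77 and 8.34 in A3R, against 9.53, 9.52 and 9.55 in A0R. It stayed near background in HTB56 and fell by 0.85 in A549, a difference of 0.81 (SE 0.23, limma adjusted p = 0.0282) that lost its call in 10 of 27 alternative settings (limma adjusted p up to 0.162). The negative members included KRT19, at -1.43 (-0.30 in HTB56 and 1.14 in A549) and KRT7, at -0.80 (-0.91 in HTB56 and -0.11 in A549), keratins of simple epithelium.

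Mesenchymal genes went both ways: of 40 tested 8 were called positive and 12 negative (50%), with a median of -0.10, and without A0R replicate 2 5 and 11. Of the 19 members above the median in both unselected lines 3 were called positive and 5 negative. COL1A1, a chain of type I collagen, differed by 1.56 (1.41 in HTB56 and -0.16 in A549), while CDH11, the osteoblast cadherin, differed by -2.57 (-2.60 in HTB56 and -0.03 in A549), MMP2, the gelatinase A gene, by -2.37 (-2.35 in HTB56 and 0.02 in A549) and LOX, which crosslinks collagen, by -2.18 (-2.02 in HTB56 and 0.15 in A549). VIM, which encodes vimentin, ran from 12.13 to 12.15 in H3R, from 11.90 to 12.01 in H0R, from 11.23 to 11.31 in A3R and from 11.25 to 11.46 in A0R, and its difference of 0.24 was not called (SE 0.11, limma adjusted p = 0.153). ZEB1, a repressor of epithelial genes, differed by 0.41 (0.46 in HTB56 and 0.05 in A549) and lost its call in 7 of 27 alternative settings (limma adjusted p up to 0.462). Matrix proteases and their inhibitors had 6 of 41 positive and 13 negative (46.3%), and integrins, laminins and basement membrane genes 2 of 36 positive and 9 negative (30.6%), without the block 1 and 7. ADAM28, a membrane protease, differed by -2.39 (-2.01 in HTB56 and 0.38 in A549), and LAMC1, a laminin chain, by 0.65 (0.55 in HTB56 and -0.10 in A549), whose call was lost in 4 of 27 alternative settings (limma adjusted p up to 0.0921). Of 23 protocadherin genes 5 were positive and 2 negative (30.4%), and of the 2 above the median in both unselected lines 0 were called. Of 40 S100 and tetraspanin genes 9 were positive and 4 negative (32.5%). Of the 23 among them above the median in both unselected lines 7 were positive and 3 negative. Of 30 hyaluronan, glypican and syndecan genes 3 were positive and 5 negative (26.7%). GPC4, a glypican near background in A549, differed by -2.70 (-2.76 in HTB56 and -0.06 in A549), against 3.05 for GPC6.

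Fibroblast markers were called in both directions: of 10 tested 4 were called positive and 1 negative (50%), with a median difference of 0.004. Their median change was 0.14 in HTB56 and 0.11 in A549. Their mean level per array ran from 5.88 to 6.09 in H3R and from 5.30 to 5.59 in H0R, and from 5.84 to 5.96 in A3R and from 5.57 to 5.71 in A0R. The number of the 10 below the median of all values was 4 in H3R and 7 in each of the other groups, and their part in the results was not tested. Without A0R replicate 2 the calls were 2 positive and 1 negative. The positive members COL1A1, COL3A1, at 1.15 (1.29 in HTB56 and 0.14 in A549) and LUM are also in the mesenchymal list. The negative member was C1R, at -0.66, whose call was lost in 4 of 27 alternative settings (limma adjusted p up to 0.0909). Endothelial markers had 0 of 13 positive and 2 negative (15.4%), with 1 negative without the block or without A0R replicate 2, and leukocyte markers 2 of 19 positive and 1 negative (15.8%). The leukocyte calls were LYZ, which encodes lysozyme, at 1.58 (1.66 in HTB56 and 0.08 in A549), CD68, a lysosomal membrane protein, at 1.10 (0.65 in HTB56 and -0.44 in A549), and LAPTM5, a lysosomal protein of blood cells, at -2.30 (-2.25 in HTB56 and 0.05 in A549).

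Cholesterol and fatty acid synthesis genes had 8 of 28 called negative and 1 positive (32.1%), with a median of -0.15. Of the 28, 27 were above the median in both unselected lines, where 25% of all genes were called. Without the replicate block, and again without A0R replicate 2, 5 of the 28 were negative and 1 positive. Over all genes these fits called 2000 and 2901, against 3458. In HTB56 16 of the 28 were called lower and 1 higher, and in A549 0 in either direction. ELOVL6, a fatty acid elongase, read 8.43, 8.46 and 8.51 in H3R, against 9.64, 9.72 and 9.74 in H0R, and 8.04, 7.79 and 7.80 in A3R, against 7.88, 7.59 and 7.78 in A0R, a difference of -1.36 (SE 0.13, limma adjusted p = 4.79e-05). INSIG1, which retains the sterol sensor in the endoplasmic reticulum, differed by -1.25 (-1.40 in HTB56 and -0.15 in A549), and the positive member was NSDHL, a sterol dehydrogenase, at 0.86 (0.85 in HTB56 and -0.01 in A549). Unfolded protein and amino acid stress genes had 14 of 37 called negative and 3 positive (45.9%), with a median of -0.09, and without the block 11 and 1. SLC7A11, the cystine transporter, differed by -1.51 (-1.51 in HTB56 and 0.00 in A549), and DNAJC3, a chaperone of the endoplasmic reticulum that restrains the kinase PERK, by -1.30 (-1.07 in HTB56 and 0.23 in A549). TRIB3, a pseudokinase induced by stress, was a positive member at 0.96 (0.65 in HTB56 and -0.31 in A549).

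Among 43 NRF2 target and xenobiotic genes 5 were positive and 7 negative (27.9%), without the block 3 and 6, and with median centring 3 and 7. Of the 43, 38 were above the median in both unselected lines, and the share was near the 25% of all genes of that class. CYP1B1, a cytochrome P450 induced by aryl hydrocarbons, differed by -1.77 (-1.90 in HTB56 and -0.13 in A549), and SRXN1, which repairs peroxiredoxins, by 1.06 (0.77 in HTB56 and -0.29 in A549). Hypoxia and glycolysis genes had 3 of 36 positive and 3 negative (16.7%), below the 20.4% of all genes. Of the 36, 34 were above the median in both unselected lines, where 25% of all genes were called. CA12, a membrane carbonic anhydrase, differed by -0.93 (-1.02 in HTB56 and -0.09 in A549), and ANGPTL4, an inhibitor of lipoprotein lipase, by 0.93 (0.79 in HTB56 and -0.14 in A549). Mitochondrial regulators and respiration genes had 6 of 32 positive and 5 negative (34.4%), without the replicate block 3 and 1, and without A0R replicate 2 5 and 2. Of 42 ribosomal protein genes 3 were positive and 1 negative (9.52%), and without the block 1 and 0. Of the 32 mitochondrial genes 31, and all 42 ribosomal ones, were in the class with 25% called.

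Cell cycle genes, of which 54 of 55 tested were above the median in both unselected lines, had 7 positive and 8 negative (27.3%), against 25% of all genes of that class. Without the replicate block they had 2 and 4, and without A0R replicate 2 7 and 4. MKI67, the proliferation antigen, read 9.33, 9.25 and 9.14 in H3R, against 8.29, 8.45 and 8.41 in H0R, and 9.78, 10.01 and 9.48 in A3R, against 9.81, 10.01 and 9.59 in A0R. H3R lay above H0R on every array and the A549 groups overlapped, a difference of 0.90 (SE 0.15, limma adjusted p = 0.00155). MCM2, a subunit of the replication helicase, differed by -0.77 (-0.71 in HTB56 and 0.06 in A549), CDC20, an activator of the anaphase-promoting complex, by 0.60 (0.26 in HTB56 and -0.34 in A549) and CDK6, a kinase of the early cycle, by -0.98 (-0.47 in HTB56 and 0.51 in A549). CDC20 and CDK6 changed in opposite ways in the lines, with both changes called. Among 30 p53 targets 6 were positive and 3 negative (30%), and without the block 2 and 1. Of the 30, 26 were above the median in both unselected lines, where 25% of all genes were called. AEN, a nuclease induced by p53, differed by 0.88 (0.64 in HTB56 and -0.24 in A549), and XPC, a DNA damage recognition factor, by -0.76 (-0.78 in HTB56 and -0.02 in A549).

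DNA methylation and Polycomb genes had 2 of 42 positive and 8 negative (23.8%), without the block 1 and 2, and without A0R replicate 2 2 and 4. Of the 42, 38 were above the median in both unselected lines, and the share was near the 25% of all genes of that class. DNMT1, the maintenance methyltransferase, read 9.85, 9.82 and 9.66 in H3R, against 9.88, 9.85 and 9.76 in H0R, and 9.06, 8.96 and 8.74 in A3R, against 9.03, 8.95 and 8.76 in A0R, and its difference of -0.06 was not called (SE 0.10, limma adjusted p = 0.726). DNMT3B, a de novo methyltransferase, differed by 0.83 (0.18 in HTB56 and -0.65 in A549), and MBD4, a glycosylase of mismatched methylated sites, by -0.67 (-0.64 in HTB56 and 0.03 in A549). EZH2, the Polycomb methyltransferase, differed by -0.39 (-0.28 in HTB56 and 0.11 in A549) and lost its call in 18 of 27 alternative settings (limma adjusted p up to 0.68). Immediate early and heat shock genes had 8 of 37 positive and 7 negative (40.5%), without the block 3 and 5, and with median centring 5 and 7. EGR1, an early growth response factor, differed by 1.19 (1.02 in HTB56 and -0.17 in A549), and SPRY1, a feedback inhibitor of receptor kinases, by -1.09 (-1.04 in HTB56 and 0.06 in A549).

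Signalling lists were called in both directions. TGF-beta and BMP genes had 6 of 50 positive and 14 negative (40%). FST, the activin antagonist follistatin, read 7.49, 7.06 and 7.61 in H3R, against 9.0, 8.06 and 8.74 in H0R, and 6.59, 6.11 and 7.06 in A3R, against 5.58, 5.84 and 6.0 in A0R. H3R was lower than H0R and A3R higher than A0R on every array, a difference of -1.99 (SE 0.26, limma adjusted p = 0.000362). LTBP1, which binds latent TGF-beta, moved the other way at 1.16 (0.46 in HTB56 and -0.70 in A549), and the ligand BMP2 differed by 1.23 (1.31 in HTB56 and 0.08 in A549). Wnt genes had 5 of 54 positive and 6 negative (20.4%), the share of all genes, and without the block 3 and 4. FZD8, a Wnt receptor, differed by 1.71 (1.63 in HTB56 and -0.08 in A549), DKK1, a secreted Wnt antagonist, by -1.20 (-0.43 in HTB56 and 0.77 in A549) and LEF1, a transcription factor of the pathway, by -1.53 (-1.52 in HTB56 and 0.01 in A549). Notch genes had 7 of 38 positive and 6 negative (34.2%). The ligand JAG1 differed by 1.31 (1.12 in HTB56 and -0.19 in A549), and the receptor NOTCH3 by 0.96 (0.18 in HTB56 and -0.78 in A549), whose call was lost in 5 of 27 alternative settings (limma adjusted p up to 0.0784).

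Growth factor receptors and ligands had 11 of 63 positive and 12 negative (36.5%), with IGFBP4, a binding protein of insulin-like growth factors, at 1.26 (1.19 in HTB56 and -0.08 in A549) and NRP2, a co-receptor of VEGF and semaphorins, at -1.48 (-1.33 in HTB56 and 0.16 in A549). HOX cluster genes had 6 of 25 positive and 4 negative (40%), and without the block 2 and 3. HOXD10 read 5.38, 5.15 and 5.24 in H3R, against 7.36, 7.50 and 7.37 in H0R, and 5.72, 5.95 and 6.11 in A3R, against 5.56, 5.11 and 5.64 in A0R, a difference of -2.64 (SE 0.19, limma adjusted p = 8.31e-06). Its neighbour HOXD11 differed by -1.84 (-1.47 in HTB56 and 0.37 in A549) with both changes called, and HOXC11 by 1.31 (1.21 in HTB56 and -0.10 in A549). Lung and endoderm lineage genes had 5 of 29 positive and 1 negative (20.7%), and cancer-testis antigens 5 of 24 positive and 2 negative (29.2%). DDX53, a cancer-testis helicase, differed by -3.00 (-3.05 in HTB56 and -0.05 in A549), and FAM133A, which rose in A549, by -1.38 (0.16 in HTB56 and 1.53 in A549).

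**Figure D4:**
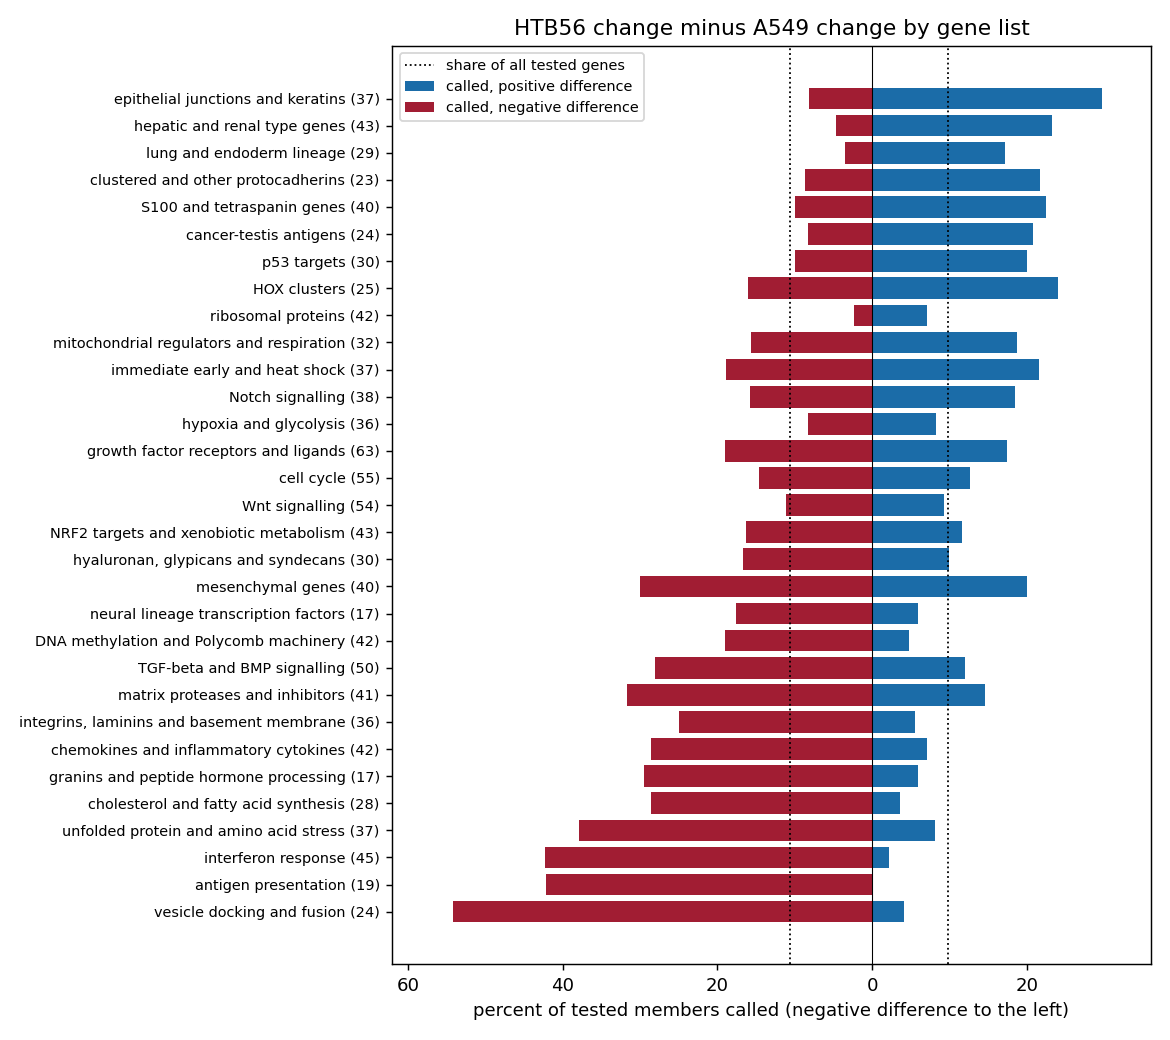
Percent of the tested members of 31 gene lists that were called in the difference of changes (HTB56 minus A549), with positive differences to the right of 0 and negative ones to the left; the number tested is in parentheses and dotted lines mark the shares of all genes, 9.82% positive and 10.6% negative. Vesicle docking and fusion, antigen presentation and interferon response genes extend farthest to the left, and epithelial junction and keratin genes farthest to the right.

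Called genes were also unevenly placed along the chromosomes. After the share called per chromosome had been seen, the genes above the median in both unselected lines were put in chromosome order and cut into 263 blocks of 35 to 44 neighbours, 10528 genes in all. The median difference of 59 blocks lay beyond 0.2 in either direction, 31 positive and 28 negative, and all 59 had the same sign in each of the 3 replicate numbers. These blocks were picked by a median over the same 3 numbers, so that agreement follows largely from the choice and is not separate evidence. In HTB56 alone 65 blocks had a median change beyond 0.2, and in A549 2. Of the 2365 genes in the 59 blocks 1025 were called (43.3%), 956 of them with the sign of their block, against 19.7% called in the other blocks. The blocks were drawn on the values they describe and got no test.

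The blocks with the most positive medians were both on chromosome 20, where the stretch that runs in order from RNF24 to NAA20 had a median difference of 0.73, with a median change of 0.81 in HTB56 and 0.01 in A549 and 34 of 40 genes called. Its neighbour from DEFB132 to PANK2 had a median of 0.65. The most negative was a block of chromosome 9 from WASHC1 to C9orf72, with a median difference of -0.60, -0.56 in HTB56 and 0.03 in A549 and 33 of 41 genes called. On chromosome X the block from NSDHL to IL9R had a median of 0.53, and on chromosome 4 that from CAMK2D to ZNF330 one of -0.50. These blocks are named by their end genes, which were chosen after the values were seen.

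Whole chromosomes shifted by less. On chromosome 7 all 12 blocks lay below 0, with 13 genes called positive and 143 negative and a median difference of -0.23. On chromosome 15 all 8 blocks lay above 0, with 93 positive and 18 negative and a median of 0.21. Chromosome 3 had 52 positive and 162 negative genes, with blocks from -0.45 to 0.17. In A549 all 17 blocks of chromosome 2 lay below 0, from -0.24 to -0.05, with a median change of -0.15, while HTB56 had a median of -0.11 there. NSDHL, the positive member of the cholesterol list, lies at the end of the positive block on chromosome X. Positions were used as gene order alone, and DNA was not measured here.

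**Figure D5:**
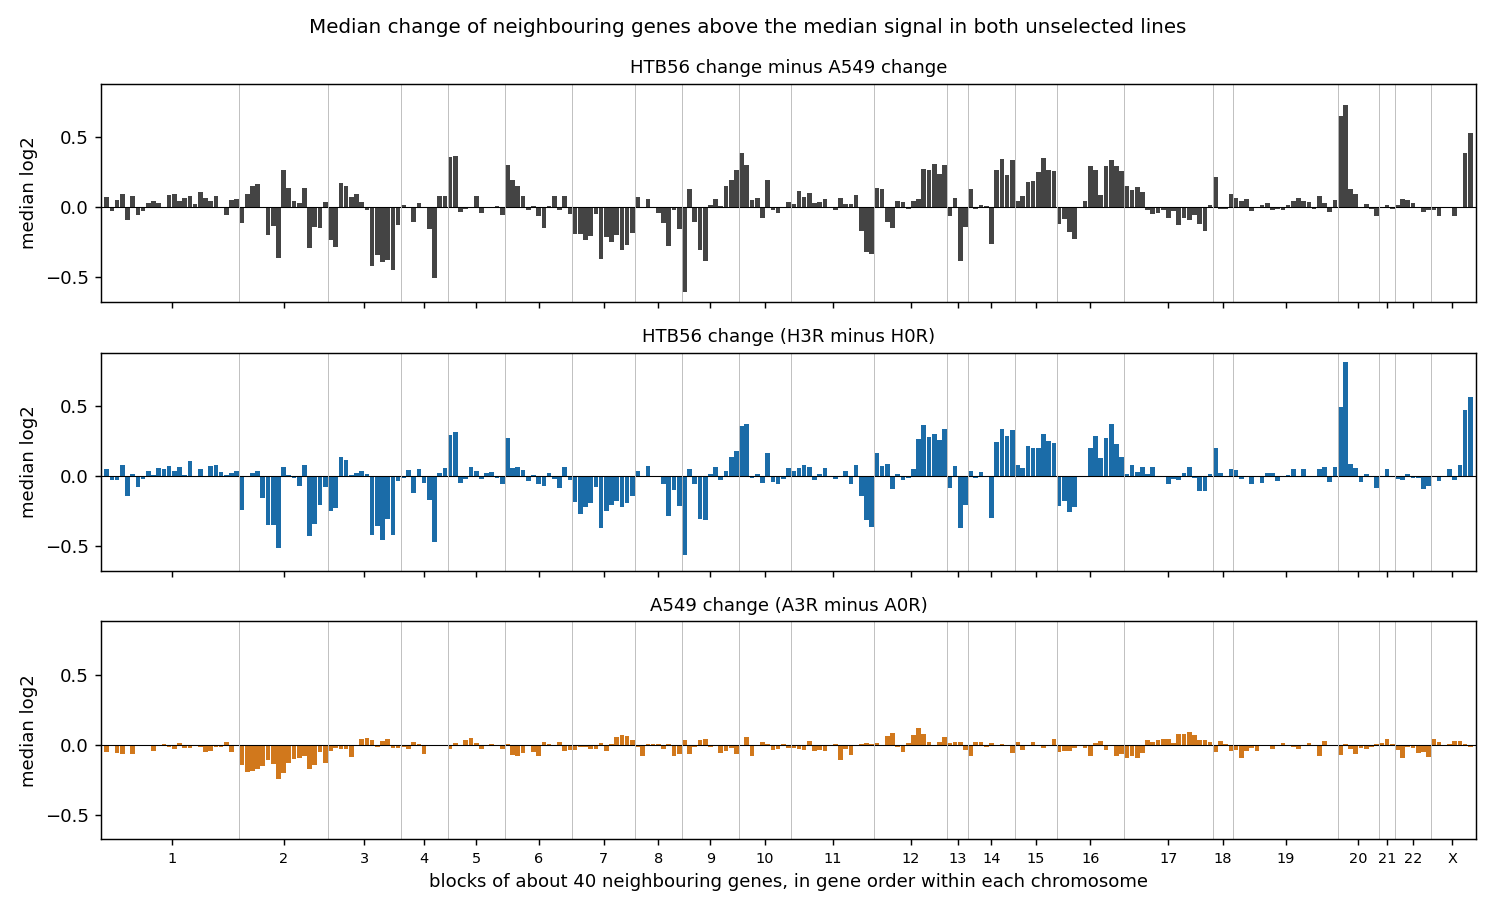
Median log2 change of blocks of about 40 neighbouring genes above the median in both unselected lines, in gene order within each chromosome (horizontal axis), for the difference of changes (top), HTB56, H3R minus H0R (middle), and A549, A3R minus A0R (bottom). Runs of blocks on one side of 0 on chromosomes 3, 7, 12, 15 and 20, among others, appear in the top and middle panels. On chromosome X 6 of 8 blocks lie below 0 in the top panel, down to -0.07, and 2 above it, up to 0.53. The A549 panel stays close to 0 apart from chromosome 2.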

How the data were processed

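All 12 arrays of the series were used, 3 in each of 4 groups taken from the sample titles. Per the submitters' processing notes, the deposited log2 values come from RMA run in Affymetrix Expression Console, whose version the sources used here do not give. The RMA method quantile-normalizes the arrays and compresses differences of dim genes toward background. Scanner files were not used here.

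Of 33297 probe sets 19460 had 1 gene symbol in the platform annotation, 1754 had several and 12083 had none, and 19429 matched RefSeq (GRCh38.p14). Probe sets that passed the 20th percentile (mean 3.48) of 3 or more arrays were kept, and the brightest stood for its gene. The table had 0 unused columns and 0 pairs of identical arrays.

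Group means and replicate number were fitted in R 4.3.3 with lmFit and eBayes of limma 3.58.1 (two-sided, Benjamini-Hochberg over 16939 genes, 6 residual degrees of freedom). The script was tested on simulated data. Deviations from group means correlated at 0.160 to 0.549 within a replicate number and at -0.417 to 0.204 across numbers, and all 12 arrays of 12 were closest to one of their own number, so the numbers pair the samples, from the data. Promoters came from RefSeq, with a window for 13194 tested genes. Figures and tables used matplotlib 3.10.9, pandas 2.3.3 and Python 3.11.15.

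The question, the gene lists and the rule for named genes were chosen with earlier results of these data known. The 170 named genes were, among called genes with 1 sign in all 3 replicate numbers, the 10 most positive and 10 most negative above the median in both lines, 5 each way in either one-line class and 3 each way in neither (non-coding, pseudogene and olfactory receptor symbols left out), the 8 opposite genes each way and 8 same-sign genes with the largest lesser change, up to 2 called members per list and direction, and 16 genes always shown. Alternatives were the block, filters, probe set choice, scaling, eBayes settings, a treat test against 1.2-fold, a threshold of 0.01, array weights, class boundaries and leaving out arrays.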

Additional observations from a re-analysis of the deposited data

Results flagged for a closer look

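The change between unselected and selected cells differed between the 2 lines at 3458 genes, by a limma test of the difference itself. At 116 of them both changes were called with opposite signs. The test of the difference was passed by 168 of the 170 named genes. Apart from the genes always shown, named genes were taken only from called ones. That count therefore follows from the choice and is not separate evidence. VIM and DNMT1, which did not pass, were among the genes always shown. The opposite-sign genes named by the smaller of their 2 absolute changes are repeated here as differences of changes, HTB56 minus A549, on the log2 scale. Opposite-sign genes outside that choice include TRPA1 (-4.01), TM4SF18 (-3.19), CA8 (-2.76) and STOM (2.10), some of them with larger differences. The positive ones were GPC6 (3.05), LIN28B (2.32), SH3BGRL2 (1.85), ZNF485 (1.55), ALDH2 (1.41), RBPMS (1.39), PPP1R14A (1.35) and PTGER2 (1.28). The negative ones were CXCL8 (-3.02), DNAJC12 (-2.78), CXCL1 (-2.62), SOX2 (-2.57), LGALS3BP (-2.31), LXN (-2.27), STC1 (-2.02) and KCNN4 (-1.94).

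Probe sets with several gene symbols or none entered no result above. Of 9858 such probe sets tested in the same way, 116 were called in the limma difference (1.18%), 62 positive and 54 negative, against 20.4% of named genes.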

How the results depend on the processing

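The fit with the replicate block called 3458 genes in the difference, and the fit with no replicate block 2000 (885 positive, 1115 negative), of which 1999 were shared; without the block 1405 were above the median in both lines, 297 were called in A549 and 49 were opposite. With eBayes trend and robust settings 908 genes were called in A549 and 208 were opposite. At a threshold of 0.01 the counts were 1845 (823 positive, 1022 negative), 1388 above the median in both lines, 289 in one, 3161 in HTB56, 207 in A549 and 29 opposite. A treat test against 1.2-fold gave 1266 (527 and 739), 878, 258, 1672, 128 and 17 in the same order. Without any 1 array the difference called 2629 to 3089 genes, A549 had 290 to 525 called genes and the opposite ones numbered 54 to 102. Moves of over 1.5 times came without A3R replicate 1, 2 or 3 (A549 312, 290 and 349, opposite 54, 54 and 70), A0R replicate 1 or 2 (A549 299 and 337, opposite 59 and 60) and H3R replicate 2 (opposite 77). Leaving out replicate 1, 2 or 3 in all groups gave 1803, 1538 or 2077 genes (820, 697 or 886 positive, 983, 841 or 1191 negative). Those above the median in both lines were then 1267, 1051 or 1482, those called in A549 156, 167 or 266 and the opposite ones 22, 31 or 39, and HTB56 had 2870 without number 2. A fit with neither the block nor A0R replicate 2, chosen after seeing the data, gave 1701 (780 and 921), 1159 in both lines, 192 in A549 and 25 opposite. The random block, filters, probe set choice, scaling, array weights and class boundaries moved each of these totals by under 1.5 times. Counts within a gene list moved more: a count in at least 1 direction changed by over 1.5 times in 14 of 34 lists without the block, 7 without A0R replicate 2, 3 with median centring, 0 with cyclic loess and 20 without replicate 3 in all groups. No gene called both by the reported fit and by an alternative changed sign. Of the 168 named genes called, 33 lost their call under at least 1 setting, among them IL18, EPCAM, AMOTL1, EFEMP1 and KRT7 in 1 each and CCL28 in 2. The cause of these shifts was not tested, except that stricter tests and fewer arrays call fewer genes by construction. Signals near background limit the one-line classes.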

Other observations

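Further motifs were searched in the same promoter windows. The AP-1 type motif TGANTCA was present in 5.42% of the windows of genes with a positive difference and 4.91% of those with a negative one, against 5.28% of the windows of tested genes and 7.76% of all windows. The E-box type motif CACGTG was present in 10.5% and 9.13%, against 9.28% of the windows of tested genes and 7.43% of all windows. Within the chemokine and cytokine list TGANTCA was present in 10 of 31 windows (32.3%) and in 2 of the 10 with a negative call. Within the interferon response list TGANTCA was present in 4 of 37 windows (10.8%) and in 1 of the 18 with a negative call. CACGTG was present in 3.23% of the chemokine and cytokine windows and 10.8% of the interferon response ones. No test was made of these shares.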
